A study of Arabidopsis thaliana with 6 samples.

Results

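The data compared here are mRNA levels in *Arabidopsis thaliana* seedlings of 2 lines, those labelled *sap18* and those labelled *sr45*, set directly against each other. There were 2 libraries for each line, 4 of the 6 libraries of the series, and the other 2, from the wild-type accession Col-0, were left out of the contrast. All 454 loci of the deposited table were compared. Each value is a cRPKM, which is the number of reads per unit of mappable length and of sequencing depth, made equal in distribution between libraries by quantile normalization. The table is limited to loci that had been called against Col-0 in at least 1 of the lines, so that a share of these loci says nothing of the whole transcriptome, and the differences between the lines partly restate that selection.

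The study's mutants are T-DNA insertion lines in the Col-0 background, 1 line for *SAP18* and 1 (*sr45-1*) for *SR45*, and which of these insertions the first pair of libraries carries is in doubt, as set out next. By the labels, whole seedlings had grown for 11 days at 22 °C on MS medium under a cycle of 16 h light and 8 h dark, while a legend in the paper makes them a day younger. No source says whether the libraries of a line came from separate plantings, and p-values therefore measure only the spread between libraries, which may be technical. The titles and genotype labels of the first pair name *sap18 sr45*, whereas *sap18* alone is named in their descriptions and in the design of the series. The paper describes the libraries added during its revision as *sap18* single mutants, and reports *sap18 sr45* for an earlier set. They are called the libraries labelled *sap18* throughout. Their *SAP18* mRNA level, given below, was above that of Col-0 and *sr45*, and whether the function of *SAP18* was lost was not tested. The column names of Col-0 and *sr45* carry the word "new" and those of *sap18* do not. No source explains the word, and a batch that it might mark cannot be told apart from the line.

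SR45 is an RNA-binding protein with serine- and arginine-rich domains, and SAP18 was first known in animals as a partner of the SIN3 histone deacetylase complex. With ACINUS they form the ASAP complex, which acts in splicing and in the repression of genes such as *FLC*, the main brake on flowering in *Arabidopsis*. Seedlings also adjust iron uptake, the use of sugars and defence largely at the level of mRNA, which makes genes of these processes common in comparisons of seedling mRNA.

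A pair of criteria was used. The fold criterion asked for all 4 ratios between a library of one line and a library of the other to be at least 2 in one direction, with one of the lines above 5 cRPKM in each of its libraries. The test was limma on log2(cRPKM + 1), with 1 fit of all 6 libraries and Benjamini-Hochberg adjustment over the 454 loci at 0.05. All differences below are log2 differences on that scale, as libraries labelled *sap18* minus *sr45*, with their standard error (SE). They understate the change of loci with low values. A single locus could not have been settled by an exact permutation test, as the smallest two-sided p that 2 libraries against 2 allow is 0.33.

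The targeted genes were read first. *SR45* (AT1G16610, chromosome 1) had 20.9 and 23.1 cRPKM in the libraries labelled *sap18* and 5.39 and 4.98 in *sr45*, beside 23.1 and 19.4 in Col-0. It was low in both *sr45* libraries, as the label has it, with a difference of 1.89 (SE 0.16, adjusted p = 0.000125 from limma). *SAP18* (AT2G45640, chromosome 2) had 936 and 900 cRPKM in the libraries labelled *sap18*, 75.6 and 94.3 in those of *sr45* and 76.7 and 83.7 in Col-0. It was thus 10.8-fold higher in the line that is labelled as its mutant, a difference of 3.43 (SE 0.16, adjusted p = 2.18e-05), and no library of that line came near the others. The genotype of these plants was not tested here.

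The table holds a pair of loci near *SAP18*, and they differed in opposite directions. AT2G45630, which is annotated as a D-isomer specific 2-hydroxyacid dehydrogenase, lies 2265 bp from *SAP18* (TAIR10.1, chromosome 2, 18795926 to 18797263). It was named after its values were seen, which were 3.33 and 3.26 cRPKM in the libraries labelled *sap18*, 9.50 and 8.06 in those of *sr45* and 8.28 and 7.24 in Col-0. It was the libraries labelled *sap18* that stood apart, and the difference was -1.18 (SE 0.16, adjusted p = 0.000827 from limma). *SOC1*, which encodes a MADS-box activator of flowering, lies 6034 bp from *SAP18*. It was at 38.7 and 38.6 cRPKM in the libraries labelled *sap18*, 16.9 and 22.3 in those of *sr45* and 48.7 and 60.4 in Col-0, and here *sr45* was the lower line, with a difference of 0.96 (SE 0.19, adjusted p = 0.00409). Whether an insertion in *SAP18* bears on either locus was not tested.

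**Figure D1:**
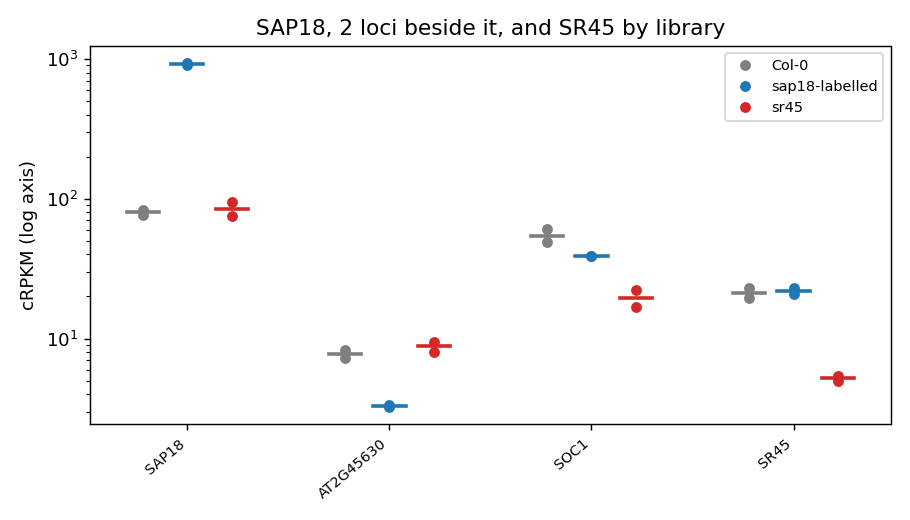
cRPKM on a log axis of SAP18, the neighbouring loci AT2G45630 and SOC1, and SR45 in the 6 libraries, where points are libraries and bars are the means of 2. SAP18 stands at 936 and 900 cRPKM in the libraries labelled sap18 and at no more than 94.3 elsewhere, while SR45 is low in sr45 alone.

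The fold criterion was met by 72 of the 454 loci (15.9%), with 48 (10.6%) toward the libraries labelled *sap18*, where they were higher, and 24 (5.29%) toward *sr45*. Each of the 72 passed limma as well (adjusted p up to 0.0136). limma passed 265 loci (58.4%), 201 (44.3%) toward the libraries labelled *sap18* and 64 (14.1%) toward *sr45*. The values of the lines did not overlap at 398 loci (87.7%), with the libraries labelled *sap18* on top at 287 (63.2%) and *sr45* at 111 (24.4%). The median locus of the table was itself 0.40 higher in the libraries labelled *sap18*. When the difference was centred on that median, limma passed 194 loci (42.7%), 78 (17.2%) toward the libraries labelled *sap18* and 116 (25.6%) toward *sr45*, so that the share of calls on the side of *sap18* went from 75.8% to 40.2%. The fold criterion was then met by 27 loci on that side and 44 on the other. Counts after this centring are therefore given beside the groups of genes. The number that limma passed was lower without either library labelled *sap18*. That pair was the closest, with an SD of log2 differences between replicates of 0.241, against 0.354 in Col-0 and 0.39 in *sr45*. A fit without 1 of them takes its spread from the other groups. A lost call therefore need not mean a smaller difference. That of *SERK4* was 0.893 with all libraries, 0.980 without replicate 1 and 0.806 without replicate 2, and its call was lost in both fits.

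**Figure D2:**
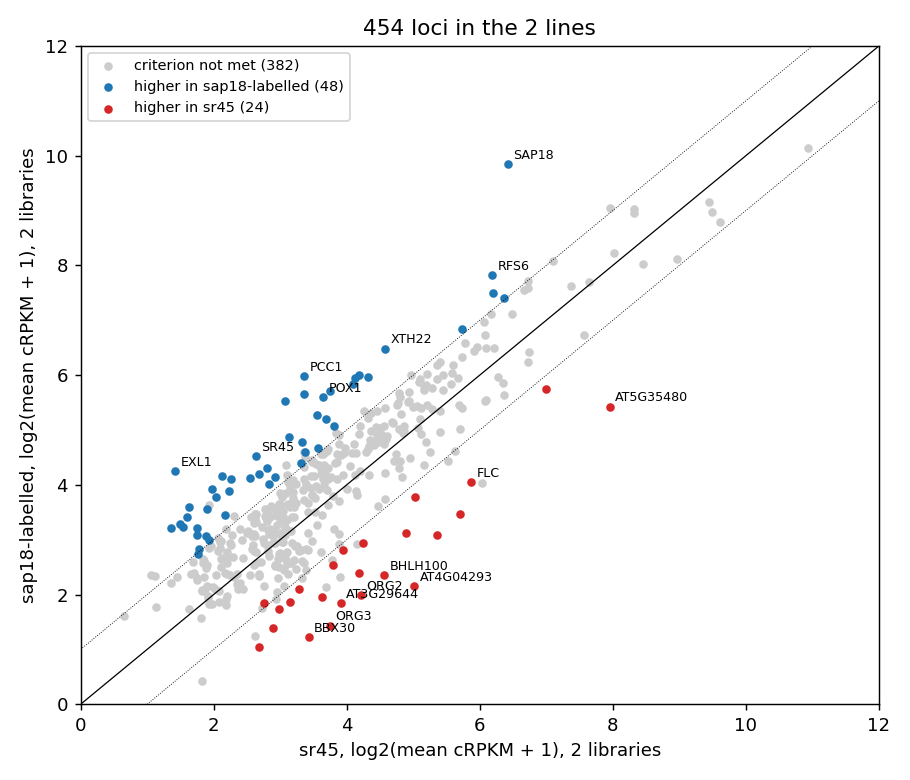
Mean level of each of the 454 loci in sr45 (x axis) and in the libraries labelled sap18 (y axis), as log2(mean cRPKM + 1) of 2 libraries. The solid line marks equal levels and the dotted lines a difference of 1, and the 48 coloured loci above and 24 coloured loci below are those that met the fold criterion.

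The iron deficiency response was the group that was highest in *sr45*. Of 16 listed genes 9 were in the table, and 7 of them were higher in *sr45* by limma, 1 was higher in the libraries labelled *sap18* and 1 did not pass, with a median difference of -1.79. The same 7 genes met the fold criterion. Over the whole table the share higher in *sr45* by limma was 14.1%, and centred on the table's median 8 of the 9 differed toward *sr45* and 1 toward the libraries labelled *sap18*. The 7 genes were called in *sr45* also when any 1 library of either line was left out.

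The 4 basic helix-loop-helix factor genes of this group, *ORG2*, *ORG3*, *BHLH100* and *BHLH101*, encode close relatives that switch on iron uptake in roots together with the factor FIT. *ORG3* (AT3G56980) had 1.38 and 2.02 cRPKM in the libraries labelled *sap18* and 12.9 and 11.9 in *sr45*, a 7.30-fold difference, beside 3.41 and 2.68 in Col-0. Its level in the libraries labelled *sap18* was below that of each Col-0 library, and in *sr45* it was far above both. *ORG2* (AT3G56970) lies 1145 bp from *ORG3* on chromosome 3 and showed the same order, with 2.56 and 3.40 cRPKM against 20.8 and 14.3. *BHLH100* (AT2G41240) was at 3.18 and 5.001 cRPKM in the libraries labelled *sap18* and 21.0 and 24.3 in *sr45*, while Col-0, at 3.15 and 4.42, overlapped the former. The differences were -2.32 (SE 0.18, adjusted p = 9.65e-05 from limma) for *ORG3*, -2.21 (SE 0.21, adjusted p = 0.000144) for *ORG2* and -2.23 (SE 0.22, adjusted p = 0.000173) for *BHLH100*. *BHLH101* differed less, by -1.26 (SE 0.18, adjusted p = 0.00104), from 4.54 and 5.05 to 12.5 and 13.2 cRPKM. *ORG2* and *ORG3* are paralogs, and reads that they share may have been split between them.

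AT1G47395, AT1G47400 and AT2G30766, which RefSeq annotates as uncharacterized proteins, were listed with this response. AT1G47395 was at 6.69 and 8.24 cRPKM in the libraries labelled *sap18* and 41.4 and 38.5 in *sr45*, a difference of -2.28 (SE 0.16, adjusted p = 5.54e-05 from limma). Its neighbour AT1G47400, 1877 bp away, went from 4.46 and 4.00 to 18.4 and 15.8 cRPKM, and AT2G30766 from 50.2 and 55.2 to 121 and 132 cRPKM. In all 3 the *sr45* libraries were above both of the others, and the first pair may share reads. *OPT3*, a transporter that carries iron in the phloem, did not pass, at 30.9 and 29.8 cRPKM against 48.7 and 33.9 (-0.41, SE 0.20, adjusted p = 0.103).

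*IRT1*, the main iron uptake transporter of the root epidermis, ran the other way. It was at 7.11 and 15.7 cRPKM in the libraries labelled *sap18*, 1.94 and 3.70 in those of *sr45* and 1.60 and 4.05 in Col-0, with a difference of 1.65 (SE 0.42, adjusted p = 0.0129 from limma). The lines did not overlap, but the libraries labelled *sap18* were themselves more than 2-fold apart, and the call was lost without replicate 2 of that line (adjusted p = 0.089) and without replicate 1 of *sr45* (0.0547). *IRT1* is also a root marker. Of 8 listed root markers, *IRT1* and the glutamine synthetase gene *GLN1-4* were in the table, and both were higher in the libraries labelled *sap18*. When centred 1 of the 2 passed, and not every fit that left out 1 library kept both. By limma 44.3% of all loci were called toward the libraries labelled *sap18*. Of 6 listed leaf markers the light-harvesting gene *LHCB4.3* was in the table and was higher there as well, at 81.7 and 76.4 cRPKM against 54.3 and 49.9 (0.59, adjusted p = 0.0116), a call that was lost without either of these libraries (0.0811 and 0.0571) and when centred (0.34). None of 5 listed seed markers was in the table. The part of organ proportions in any difference was not tested, and in whole seedlings fewer cells of a type and less RNA per cell cannot be told apart.

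**Figure D3:**
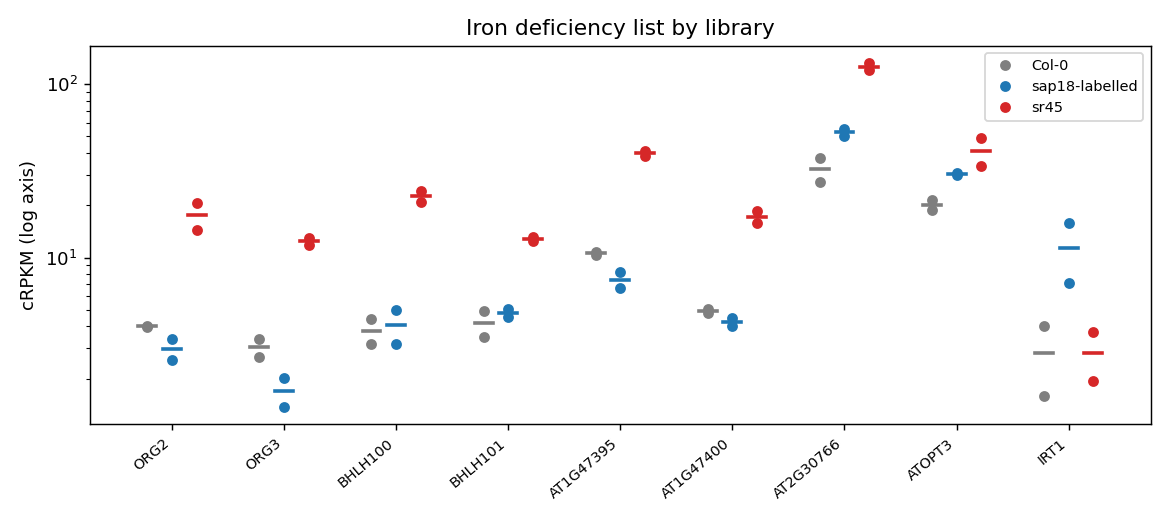
cRPKM on a log axis of the 9 iron deficiency genes of the table in the 6 libraries, where points are libraries and bars are the means of 2. In the first 7 genes both sr45 libraries lie above all others, the libraries of ATOPT3 lie closer together, and IRT1 is highest in the libraries labelled sap18, at 7.11 and 15.7 cRPKM.

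Promoters of this group are shown because bHLH factors as a class bind E-box sequences, of which the G-box is one. In the window from 250 bases before to 50 bases after the annotated start, the G-box CACGTG, a palindrome searched on both strands, was in 3 of the 9 promoters (33.3%), in 10.3% of the promoters of the table and in 7.68% of all 27443 protein-coding promoters. A match is a description of the sequence and not a binding site. The 3 stretches below are from RefSeq TAIR10.1, on the strand of the gene, with the G-box in capitals. They lie 97, 91 and 78 bases before the start. The *ORG2* stretch is from chromosome 3, 21085317 to 21085362, that of *BHLH100* from chromosome 2, 17199520 to 17199565, and that of *OPT3* from chromosome 4, 9250396 to 9250441, each on the minus strand.
ORG2: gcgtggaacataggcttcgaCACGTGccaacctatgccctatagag
BHLH100: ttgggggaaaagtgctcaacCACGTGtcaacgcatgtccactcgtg
OPT3: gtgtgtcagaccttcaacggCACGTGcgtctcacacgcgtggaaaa
The G-box was thus in genes that differed strongly between the lines and in 1 that did not pass, and *ORG3*, next to *ORG2*, had none in this window.

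Of the listed flowering genes, only *FLC* met the fold criterion. Over the whole table limma called 44.3% toward the libraries labelled *sap18* and 14.1% toward *sr45*. Of 10 listed genes 3 were in the table, and the repressor was higher in *sr45* while the activators were higher in the libraries labelled *sap18* (1 and 1 when centred). *FLC* (AT5G10140) was at 14.5 and 16.6 cRPKM in the libraries labelled *sap18*, 57.8 and 57.4 in those of *sr45* and 2.73 and 3.93 in Col-0, and so the lines lay 3.71-fold apart, both above Col-0 (-1.83, SE 0.18, adjusted p = 0.000167 from limma). *SOC1* is given above, and when centred its adjusted p was 0.0439 from limma. *AGL24*, another MADS-box activator, was at 19.9 and 20.9 cRPKM against 13.2 and 13.6 (0.57, SE 0.14, adjusted p = 0.0111), and its call was lost when centred (0.368) and without either library labelled *sap18* (0.0586 and 0.081).

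Several of the largest differences toward *sr45* were in loci that RefSeq annotates without a function. Of 35 loci with the RefSeq product name uncharacterized protein, 15 differed toward *sr45* and 5 toward the libraries labelled *sap18* by limma, where the shares of all loci were 14.1% and 44.3%, and 19 and 2 did so when centred. The fold criterion was met by 8 and 2. These 35 were grouped by that name after their values had been seen. They include the 3 loci listed with iron deficiency and *LAX3*, which is listed with the auxin genes below, so not all lack a known function. AT4G04293, a pseudogene, had 3.57 and 3.35 cRPKM in the libraries labelled *sap18*, 27.7 and 34.97 in those of *sr45* and 5.06 and 7.003 in Col-0, which was the largest difference in that direction (9.06-fold, -2.85, SE 0.19, adjusted p = 5.54e-05 from limma). AT5G35480 was the most abundant of these loci, at 46.0 and 37.8 cRPKM against 205 and 288 in *sr45*, with Col-0 between them at 68.4 and 88.2. AT2G14247 went from 10.9 and 9.28 to 54.8 and 47.7 cRPKM, AT2G34655 from 2.23 and 3.55 to 12.1 and 10.6, and the pseudogene AT5G35935 from 1.02 and 1.11 to 5.35 and 5.54. In each of these 5 loci every *sr45* library was above every other library. The long non-coding RNA AT3G29644 was the exception to this order, because Col-0, at 14.3 and 19.2 cRPKM, was close to *sr45*, at 15.1 and 12.9, and the libraries labelled *sap18* were low, at 2.76 and 2.41 (-2.06, SE 0.18, adjusted p = 0.000125). It overlaps AT3G29642 on the other strand, and as use of the strand in counting is not stated for these libraries, reads of both cannot be told apart.

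Other genes higher in *sr45* encode regulators of light, clock and auxin responses. *BBX30*, which encodes a small B-box protein, was at 1.29 and 1.36 cRPKM in the libraries labelled *sap18*, 9.51 and 10.1 in those of *sr45* and 2.41 and 2.06 in Col-0 (7.37-fold, -2.21, SE 0.15, adjusted p = 5.54e-05 from limma). *RVE2*, a MYB-related gene of the clock family, was at 21.7 and 19.6 cRPKM against 38.6 and 51.7 (-1.08, SE 0.20, adjusted p = 0.00355). The third of 10 listed clock genes in the table, AT3G54500 (*LNK2*), did not pass, at 279 and 318 against 239 and 276 cRPKM (0.21, adjusted p = 0.251, and -0.19 when centred). The other 2 passed toward *sr45* when centred as well. Of all loci 14.1% were called toward *sr45* by limma, and 25.6% when centred.

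Of 9 listed auxin genes 6 were in the table, and 2 were higher in *sr45*, 2 were higher in the libraries labelled *sap18* and 2 did not pass (4 and 1 when centred). The shares of all loci were 14.1% toward *sr45* and 44.3% toward the libraries labelled *sap18*, and 25.6% and 17.2% when centred. *IAA29*, which encodes a repressor of auxin response, went from 7.21 and 6.09 cRPKM to 15.2 and 20.5 in *sr45* (-1.29, SE 0.18, adjusted p = 0.00104 from limma). *SAUR22*, one of the small auxin-induced genes, was at 6.18 and 5.82 cRPKM against 12.6 and 16.3, and there it was the libraries labelled *sap18* that were below Col-0 (11.5 and 15.7). Its relative *SAUR15* was higher in the libraries labelled *sap18*, at 15.1 and 14.6 against 5.42 and 10.4 cRPKM (0.89, adjusted p = 0.0193), a call lost without any 1 of 3 libraries: either library labelled *sap18* (0.0912 and 0.0845) or *sr45* replicate 1 (0.0557). The remaining loci of the 15 largest differences toward *sr45* were AT4G22513, of a lipid-transfer and seed storage protein family (7.43 and 8.04 against 21.4 and 36.0 cRPKM), and AT3G58270, annotated as phospholipase-like with a TRAF-like domain (1.33 and 1.91 against 6.21 and 6.61 cRPKM). Both had a lower mean in Col-0 than in either line.

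On the other side, the list with the highest median difference was that of genes induced by darkness or sugar starvation. Of 12 listed genes 6 were in the table, and all 6 were higher in the libraries labelled *sap18* by limma (44.3% of all loci were). Their median difference was 1.38 against 0.40 for the table. Of these, 4 met the fold criterion and 5 passed when centred. Leaving out 1 library gave between 5 and 6 calls, as *DIN11* did not pass without replicate 1 of the libraries labelled *sap18* (adjusted p = 0.0988) or without *sr45* replicate 2 (0.0626), nor when centred (0.184).

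*EXL1* (AT1G35140), an *EXORDIUM*-like gene known for its induction by carbon starvation, showed the largest difference of the table after *SAP18*. It was at 16.4 and 19.5 cRPKM in the libraries labelled *sap18*, 2.60 and 0.758 in those of *sr45* and 4.64 and 2.33 in Col-0, so that only the libraries labelled *sap18* stood apart (10.7-fold, 2.91, SE 0.36, adjusted p = 0.000609 from limma). *POX1*, which encodes the first enzyme of proline breakdown in mitochondria, was at 48.9 and 46.1 cRPKM against 11.3 and 11.7 in *sr45* (1.96, SE 0.15, adjusted p = 9.65e-05). Here Col-0, at 46.0 and 39.6 cRPKM, was close to the libraries labelled *sap18*, and *sr45* stood apart. *RFS6*, a raffinose synthase family gene that is induced in the dark, followed the order of *POX1*, at 220 and 232 cRPKM against 74.6 and 68.8, with Col-0 at 205 and 179. *BT2*, a BTB and TAZ domain gene that sugars repress, was at 112 and 115 cRPKM against 53.1 and 50.7, *STR15* (*SEN1*, *DIN1*) at 215 and 202 against 98.5 and 112, and *DIN11* at 5.64 and 4.64 against 3.12 and 2.09. In these 4 genes, as in *POX1*, the range of Col-0 lay near the libraries labelled *sap18* and above *sr45*.

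The list of sugar transport, raffinose and trehalose genes, which shares *RFS6* with that group, was split. All 6 of its 8 genes that were in the table differed, 4 toward the libraries labelled *sap18* and 2 toward *sr45*, with the same counts when centred. The shares of all loci in these directions were 44.3% and 14.1%, and 17.2% and 25.6% when centred. *STP1*, the main hexose importer of seedlings, was at 170 and 189 cRPKM in the libraries labelled *sap18* and 83.8 and 60.9 in *sr45* (1.32, SE 0.19, adjusted p = 0.00104 from limma), *RFS2* at 33.5 and 31.4 against 13.96 and 11.9, and the trehalose phosphatase gene *TPPA* at 22.4 and 23.2 against 10.7 and 12.6. The hexose transporter gene *STP3* was instead higher in *sr45*, at 4.94 and 5.04 against 11.1 and 7.35 cRPKM (-0.75, adjusted p = 0.0136). The galactinol synthase gene *GOLS2* was so too, at 2.85 and 4.05 against 7.99 and 6.61 (-0.91, adjusted p = 0.00598). Neither of these calls toward *sr45* was kept in every fit that left out 1 library labelled *sap18*.

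**Figure D4:**
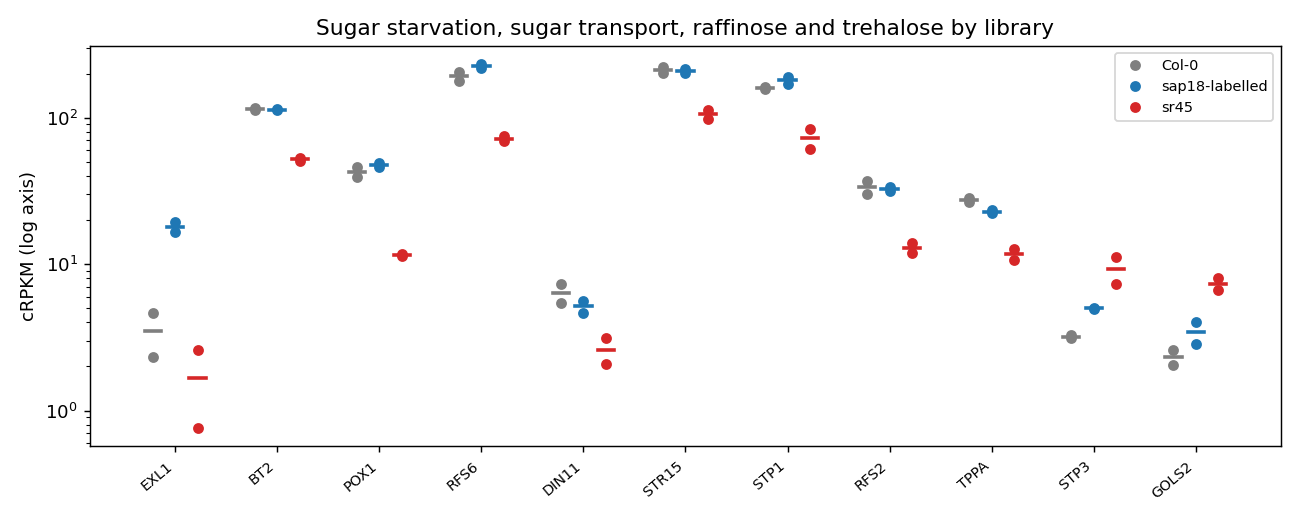
cRPKM on a log axis of the sugar starvation genes (first 6) and the sugar transport, raffinose and trehalose genes in the 6 libraries, where points are libraries and bars are the means of 2. STP3 and GOLS2 are higher in sr45 and the other 9 are higher in the libraries labelled sap18, most of them with Col-0 near the latter.

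Starch genes gave a weaker picture, with calls not far from the table's shares by limma, 44.3% toward the libraries labelled *sap18* and 14.1% toward *sr45*. Of 13 listed genes 5 were in the table. Of these, 3 differed toward the libraries labelled *sap18*, among them *ADG2*, the large subunit of the enzyme that makes ADP-glucose, at 181 and 191 against 91.9 and 108 cRPKM (0.89, SE 0.15, adjusted p = 0.0026 from limma). *SBE2.1* and *PU1*, for starch branching and debranching enzymes, were the other 2. *PU1* lost its call without any 1 of the 4 libraries of the lines (adjusted p 0.0549 to 0.15) and when centred (0.347), and *SBE2.1* without replicate 2 of the libraries labelled *sap18* (0.078) and when centred (0.184). *QQS*, a gene that modulates starch content, was higher in *sr45*, at 20.8 and 26.4 against 37.6 and 59.5 cRPKM (-0.99, SE 0.23, adjusted p = 0.00969), a call lost without replicate 1 of the libraries labelled *sap18* (0.0731). *BAM6* did not pass, at 4.46 and 3.13 against 2.85 and 1.89 cRPKM (0.51, adjusted p = 0.062).

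Defence genes had calls in both directions. Of 18 listed immune regulators and effectors 12 were in the table, with 7 toward the libraries labelled *sap18*, 2 toward *sr45* and 3 that did not pass (5 and 2 when centred), with 5 and none by the fold criterion and a median difference of 0.75. Over the whole table limma called 44.3% and 14.1% in these directions, with a median of 0.40, so that the calls of this list were not far from the table's own share. Leaving out a library gave between 5 and 8 calls toward the libraries labelled *sap18*. *PCC1* (AT3G22231), a small membrane protein gene under control of pathogens and the clock, was at 66.7 and 57.2 cRPKM in the libraries labelled *sap18*, 10.6 and 7.97 in those of *sr45* and 9.26 and 10.04 in Col-0 (6.67-fold, 2.62, SE 0.18, adjusted p = 5.54e-05 from limma). *sr45* and Col-0 overlapped in this gene. *WRKY70*, a transcription factor gene that acts between salicylic acid and jasmonate signals, had the same order of means at 18.7 ± 1.56 cRPKM against 5.94 ± 0.678 (SD, n = 2 each), with a difference of 1.505 (SE 0.16, adjusted p = 0.000235 from limma). Its Col-0 values, 8.25 and 7.295 cRPKM, lay above both *sr45* libraries.

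In the effector genes *DOX1* and *KTI1* the mean of Col-0 also lay between the lines. It was nearer to the libraries labelled *sap18* there, and nearer to *sr45* in *PCC1* and *WRKY70*. *DOX1*, an alpha-dioxygenase that makes oxylipins, was at 11.8 and 16.5 cRPKM against 3.17 and 2.67 in *sr45*, with Col-0 between them at 8.13 and 7.86 (1.94, SE 0.19, adjusted p = 0.000166 from limma). *KTI1*, a trypsin inhibitor gene, was at 9.21 and 10.01 cRPKM against 1.604 and 2.43, again around Col-0 at 5.85 and 6.58. The calmodulin-binding protein gene *CBP60F* was above both lines in Col-0 (17.62 and 14.3 cRPKM), and lower in *sr45* (2.51 and 3.13) than in the libraries labelled *sap18* (7.76 and 6.26). The genes higher in *sr45* were *WRKY60* (3.79 and 4.02 against 7.34 and 6.26 cRPKM, -0.67, adjusted p = 0.00807) and *MYB51*, a regulator of indole glucosinolates (6.14 and 5.97 against 8.94 and 10.4, -0.59, adjusted p = 0.0145). No call in this direction was left without replicate 1 of the libraries labelled *sap18*, and 1 was left without replicate 2 of that line or of *sr45*.

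Of 12 listed immune receptors and receptor kinases 10 were in the table, with 5 higher in the libraries labelled *sap18* and 5 that did not pass, close to the 44.3% of all loci called in that direction. When centred, 2 were higher on each side, and without replicate 2 of the libraries labelled *sap18* only 2 passed. The cysteine-rich receptor kinase gene *CRK19* met the fold criterion, at 8.14 and 11.7 cRPKM against 3.33 and 3.62 (1.27, SE 0.19, adjusted p = 0.00129 from limma). *WAK1*, a wall-associated kinase gene, was at 10.5 and 9.54 cRPKM in the libraries labelled *sap18*, while *sr45*, at 5.08 and 5.27, was close to Col-0 at 4.45 and 4.50 (0.83, adjusted p = 0.00249). *SERK4* and *LYK3*, for a co-receptor and a LysM receptor kinase, also passed, but neither when centred (adjusted p = 0.175 and 0.0808) or without replicate 2 of the libraries labelled *sap18* (0.118 and 0.0527), and *SERK4* not without replicate 1 of that line (0.0722) or replicate 2 of *sr45* (0.103).

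Genes of the rapid response to touch and stress are known to be induced soon after handling. Of 17 listed genes 8 were in the table, 6 were higher in the libraries labelled *sap18* (44.3% of all loci were) and 2 did not pass, with a median difference of 0.77 against 0.40 for the table, but only 2 passed when centred. *XTH22*, the touch gene that encodes a xyloglucan-modifying enzyme, was at 83.8 and 92.5 cRPKM in the libraries labelled *sap18*, 23.4 and 22.3 in those of *sr45* and 36.0 and 31.6 in Col-0 (3.86-fold, 1.90, SE 0.15, adjusted p = 0.000111 from limma). *MYB77* was at 20.5 and 23.1 cRPKM against 10.9 and 7.75 (1.16, SE 0.20, adjusted p = 0.00247), and these 2 genes were the ones that also passed when centred. *ERF104*, *SZF1*, *WRKY33* and *CML24* differed in the same direction by 0.59 to 0.83 (adjusted p 0.00328 to 0.0174), but none of the 4 passed when centred, and *WRKY33* (0.0571) and *CML24* (0.0886) did not without replicate 2 of the libraries labelled *sap18*, nor *CML24* without replicate 1 of that line (0.0873) or of *sr45* (0.05). In these 4 genes *sr45* lay between the libraries labelled *sap18* and Col-0, as for *SZF1* at 19.9 and 19.0, 11.1 and 10.8, and 6.74 and 7.64 cRPKM. *CAF1-9* and *ATL2* did not pass, and *sr45* replicate 1 was far above replicate 2 in both (10.3 and 4.20, and 6.96 and 3.37 cRPKM). The handling of the seedlings before extraction was not compared here.

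Promoters of this list are shown because WRKY factors, one of which is a member, are known to bind the W-box. The W-box was searched as TTGACC or TTGACT on both strands in the same window, where it was in 5 of the 8 promoters (62.5%), in 31.1% of the promoters of the table and in 32.4% of all protein-coding promoters. The *WRKY33* promoter (RefSeq TAIR10.1, chromosome 2, plus strand) holds it 96 and 32 bases before the start, in reverse, within 16108119 to 16108164 and 16108183 to 16108228. The *SZF1* promoter (chromosome 3, plus strand) holds it 163 bases before the start, within 20776037 to 20776082, and again closer to the start. Capitals mark the motif.
WRKY33 distal: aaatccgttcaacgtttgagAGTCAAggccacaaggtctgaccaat
WRKY33 proximal: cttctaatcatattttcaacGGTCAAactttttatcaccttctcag
SZF1 distal: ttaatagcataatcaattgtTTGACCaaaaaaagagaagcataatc
The motif was also in *XTH22*, *ATL2* and *MYB77*, the second of which did not pass, and among the 47 promoters of loci that met the fold criterion toward the libraries labelled *sap18* it was in 38.3%.

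Most jasmonate genes of the table were lower in *sr45* than in the libraries labelled *sap18*, and the mean of Col-0 was above both lines in each of them. Of 16 listed genes 9 were in the table and 8 passed toward the libraries labelled *sap18* (44.3% of all loci did), with a median difference of 0.77 against 0.40 for the table, but 2 passed when centred, 3 without replicate 1 and 4 without replicate 2 of the libraries labelled *sap18*. *VSP2*, a storage protein gene that jasmonate induces, was at 172 and 164 cRPKM in the libraries labelled *sap18*, 80.2 and 81.7 in those of *sr45* and 204 and 244 in Col-0 (1.04, SE 0.15, adjusted p = 0.00129 from limma), and its smallest ratio between libraries, 2.01, was just inside the fold criterion. Its paralog *VSP1*, at 19.4 and 19.8 against 9.70 and 5.26 cRPKM, was just outside it at 1.995. *AOC2* of jasmonate synthesis was at 61.7 and 66.0 cRPKM against 37.6 and 34.1 (0.82, SE 0.15, adjusted p = 0.00362), a call lost when centred (0.0657). AT5G05600, a 2-oxoglutarate oxygenase gene, was at 4.36 and 3.64 against 2.02 and 1.41 cRPKM (0.88, adjusted p = 0.00969), and its call was lost when centred (0.0994) and without replicate 1 of the libraries labelled *sap18* (0.0713). *OPR3*, the enzyme of the reduction step, did not pass, at 25.7 and 27.2 against 24.7 and 19.4 cRPKM (0.26, adjusted p = 0.188). *AOC1* and *AOC2*, and *VSP1* and *VSP2*, are paralogs that may share reads.

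Cell wall genes were mixed in the structural and the loosening list alike. By limma 44.3% of all loci were called toward the libraries labelled *sap18* and 14.1% toward *sr45*. The limma calls of neither list were far from these shares. The 7 listed structural wall proteins were all in the table, whose loci were known when the list was written. Of these, 3 were higher in the libraries labelled *sap18* and met the fold criterion, and 4 did not pass. When centred, 3 of the 4 were higher in *sr45*. *AGP17*, an arabinogalactan protein gene, was at 63.0 and 62.7 cRPKM in the libraries labelled *sap18*, 17.3 and 17.3 in those of *sr45* and 28.4 and 22.4 in Col-0 (1.80, SE 0.16, adjusted p = 0.000125 from limma). *LRX3*, a leucine-rich repeat extensin gene, was at 54.9 and 68.5 cRPKM against 23.4 and 14.5, and the glycine-rich protein gene *GRP9* at 68.4 and 52.4 against 14.6 and 18.2. The extensin gene *EXT4* did not pass, at 65.1 and 104 against 121 and 91.6 cRPKM (-0.35, adjusted p = 0.237).

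Of 12 listed wall loosening genes 8 were in the table, with 4 higher in the libraries labelled *sap18*, 1 higher in *sr45* and 3 that did not pass (3 and 4 when centred). *XTH25* was at 4.21 and 3.95 cRPKM against 1.40 and 0.931 (1.24, SE 0.17, adjusted p = 0.000873 from limma), and the expansin-like gene *EXLA1* at 19.4 and 22.4 against 10.7 and 9.48. The expansin gene *EXPA3* was higher in *sr45*, at 72.1 and 77.6 against 108 and 101 cRPKM (-0.48, adjusted p = 0.0256). Its call was lost without either library labelled *sap18* (0.145 and 0.0886) and without *sr45* replicate 1 (0.0778). *XTH22*, given above, had the largest difference of this list.

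Some gene families had calls in 1 direction for each of their members in the table. They were grouped after their values had been seen, and the names below other than *EXL1*, *MLP329*, *MYB70*, *MYB77* and AT3G19680 were chosen in the same way. The 3 *EXORDIUM* family genes, which are known for roles in growth under brassinosteroid and low carbon, were each higher in the libraries labelled *sap18* and met the fold criterion: *EXO* was at 50.9 and 52.3 cRPKM against 14.3 and 10.6, and *EXL5* at 34.4 and 37.1 against 14.7 and 9.16. In both, as in *EXL1*, *sr45* and Col-0 were close (14.9 and 13.2 cRPKM of *EXO* in Col-0). The 3 genes of major latex protein type met it in the same direction, with *MLP34* at 30.7 and 26.2 against 6.71 and 8.74 cRPKM, *MLP328* at 19.0 and 13.8 against 3.59 and 6.10, and *MLP329* at 9.66 and 6.995 against 1.82 and 1.96. *MLP328* and *MLP329* lie 2416 bp apart and may share reads. The pair of DUF1005 loci did so too, with AT3G19680 at 51.4 and 47.8 cRPKM against 12.1 and 6.40 (2.36, SE 0.26, adjusted p = 0.000325 from limma) and AT1G10020 at 36.3 and 39.4 against 12.5 and 8.92. All 8 loci of these 3 families also passed when centred. The MYB and homeodomain-like genes were not alike: among 8 such loci 4 were higher in the libraries labelled *sap18*, 2 (*MYB51* and *RVE2*) were higher in *sr45* and 2 did not pass (3 and 2 by direction when centred). Those with the largest differences were *MYB70*, *MYB73* and *MYB77*, of which the first was at 16.3 and 17.58 cRPKM against 4.54 and 2.21 (2.09, SE 0.25, adjusted p = 0.000446) and the second at 27.4 and 25.5 against 11.5 and 6.53.

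The rest of the 15 largest differences toward the libraries labelled *sap18* had no group in common. AT4G13575, of unknown function, was the third largest apart from *SAP18*, at 47.2 and 42.6 cRPKM against 7.14 and 7.61 in *sr45*, but Col-0 was far above both at 126 and 143 (2.45, SE 0.15, adjusted p = 5.54e-05 from limma). *APY5*, an apyrase family gene, also had Col-0 highest, at 15.1 and 19.0 against 11.6 and 10.5 and 1.70 and 2.52 cRPKM. AT1G67330, annotated as similar to glucuronoxylan 4-O-methyltransferases, was low in Col-0 (1.42 and 1.73 cRPKM) and *sr45* (1.66 and 1.49) and at 7.41 and 9.16 in the libraries labelled *sap18*. The others were AT1G19020 (9.81 and 7.70 against 2.095 and 1.52 cRPKM), the phosphodiesterase gene *GDPD2* (18.0 and 14.6 against 3.39 and 4.18) and the hydroxyproline-rich protein gene *PELPK1* (11.6 and 9.97 against 1.74 and 3.73).

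**Figure D5:**
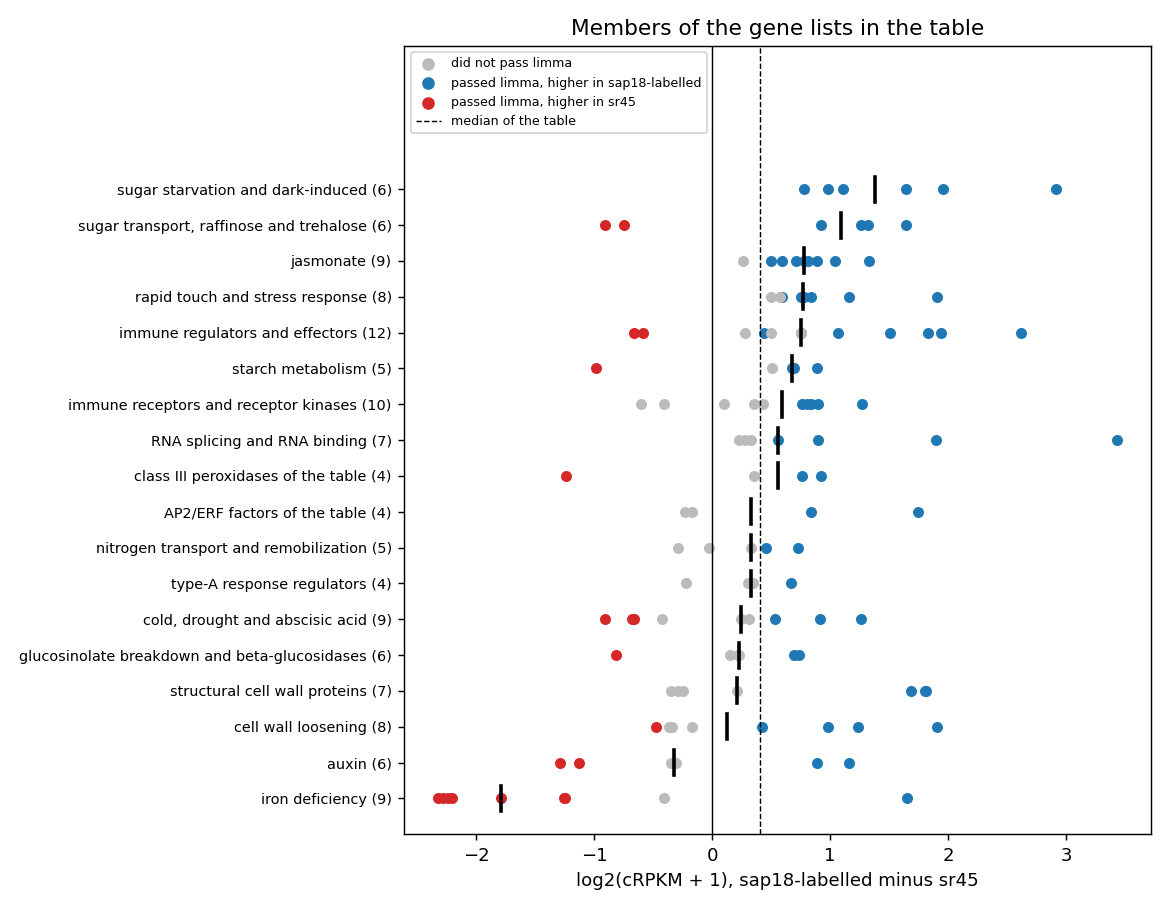
Log2 difference (libraries labelled sap18 minus sr45) of the members of each gene list with at least 4 members in the table. Points are genes, coloured by the limma call, short bars are list medians, and the dashed line is the median of the 454 loci, 0.40; the sugar starvation list has a median of 1.38 and the iron deficiency list of -1.79.

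The AP2/ERF, peroxidase and lipid transfer groups held members on both sides or with no call. The first 2 lists were drawn from the table itself. Among 4 AP2/ERF genes, 2 were toward the libraries labelled *sap18* and none toward *sr45* (1 and 2 when centred). The counts were 2 and 1 among 4 peroxidase genes (1 and 1), and 1 and 1 among the 3 of 5 lipid transfer protein genes in the table (none and 2). The shares of all loci in these directions were 44.3% and 14.1% by limma, and 17.2% and 25.6% when centred. *ERF012* was the strongest of the 4 listed AP2/ERF genes, at 12.5 and 12.9 cRPKM in the libraries labelled *sap18* against 3.27 and 2.90 in *sr45* (1.74, SE 0.16, adjusted p = 0.000125 from limma). *ERF039* and *ERF003* did not pass (-0.23 and -0.17, adjusted p = 0.282 and 0.364). Of the 4 class III peroxidase genes, *PER33* was higher in *sr45*, at 12.3 and 13.2 against 28.6 and 34.3 cRPKM (-1.24, SE 0.18, adjusted p = 0.00104). Its close relative *PER32* was higher in the libraries labelled *sap18*, at 21.0 and 27.5 against 12.1 and 12.3 (0.92, adjusted p = 0.00333), and these 2 may share reads. *PER22* was the other gene toward the libraries labelled *sap18*, at 12.6 and 15.3 against 7.005 and 8.71 cRPKM (0.76, adjusted p = 0.0228), and it did not pass when centred (0.249), without either library labelled *sap18* (0.0611 and 0.138) or without *sr45* replicate 1 (0.0853). *LTP1*, a very abundant lipid transfer protein gene of the epidermis, was higher in *sr45* (-0.79, SE 0.14, adjusted p = 0.00299), and *LTP10* was higher in the libraries labelled *sap18*, at 7.34 and 5.44 against 2.37 and 3.38 cRPKM (0.93, adjusted p = 0.0114, lost when centred and without replicate 1 of that line, 0.0988 and 0.0845).

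Cold, drought and abscisic acid genes had members higher in either line. Over the whole table limma called 44.3% toward the libraries labelled *sap18* and 14.1% toward *sr45*. Of 14 listed genes 9 were in the table, 3 were higher in each line and 3 did not pass (1 toward the libraries labelled *sap18* and 4 toward *sr45* when centred, and 1 toward *sr45* without either library labelled *sap18*). The abscisic acid receptor gene *PYL5* was at 20.9 and 25.5 cRPKM against 11.1 and 7.33 in *sr45* (1.26, SE 0.21, adjusted p = 0.00216 from limma). *COR15A*, a cold-regulated chloroplast protein gene, was at 37.3 and 34.9 against 15.6 and 22.3 cRPKM (0.92, adjusted p = 0.00707), a call lost when centred (0.0734) and without replicate 1 of the libraries labelled *sap18* (0.0527). *MARD1*, an abscisic acid-responsive gene of senescence, was at 32.9 and 30.2 against 51.5 and 50.9 (-0.68, adjusted p = 0.0056), lost without replicate 2 of that line (0.0571).

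Of the 7 genes for RNA splicing and RNA binding in the table (9 listed), 4 were higher in the libraries labelled *sap18*. By limma 44.3% of all loci were, and the 4 include *SAP18* and *SR45*. The others were *UBA2B* (16.3 and 15.5 against 9.18 and 7.09 cRPKM) and *UBA2C* (16.8 and 18.9 against 12.2 and 11.4), for hnRNP-type proteins, and neither passed when centred, without either library labelled *sap18* or without *sr45* replicate 2, nor *UBA2C* without *sr45* replicate 1 (0.0606). *RS31A* and *SNRNP65*, for a splicing factor and a protein of small nuclear RNPs, did not pass, nor did *SRD2* (0.23 to 0.33, adjusted p from 0.11 to 0.221 by limma). *ESM1*, a gene of glucosinolate breakdown, was higher in *sr45*, at 429 and 453 against 808 and 749 cRPKM (-0.82, SE 0.14, adjusted p = 0.00261 from limma), and Col-0 was far below at 71.1 and 71.4. None of the other 5 genes of that list, all beta-glucosidase genes but *ESP*, passed toward the libraries labelled *sap18* when centred, when *ESM1* still passed. Without centring 2 were higher in the libraries labelled *sap18* (44.3% of all loci were). These were *BGLU6*, at 14.3 and 18.1 against 9.52 and 9.01 cRPKM (0.74, adjusted p = 0.00736), and *BGLU7*, near the bottom of the range at 2.36 and 2.47 against 1.73 and 0.642. Without replicate 2 of the libraries labelled *sap18* neither passed, and *BGLU7* passed under 4 of 12 alternatives.

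The counts of this paragraph stand beside table shares by limma of 44.3% toward the libraries labelled *sap18* and 14.1% toward *sr45*. Among type-A response regulators, which cytokinin induces, 4 of 10 were in the table and 1, *ARR15*, passed, at 11.4 and 6.42 against 4.70 and 5.44 cRPKM (0.66, SE 0.25, adjusted p = 0.0489 from limma). That call was kept under 4 of 13 alternatives, and none of the list passed when centred. Among 5 of 10 listed nitrogen genes 2 passed, *GLN1-4* (5.48 and 4.42 against 2.31 and 2.88 cRPKM) and the allantoinase gene *ALN* (23.4 and 22.5 against 15.3 and 17.8), and neither passed when centred (0.169 and 0.808) or without replicate 1 of the libraries labelled *sap18*, nor *ALN* without replicate 2 of that line or *sr45* replicate 1 or with the replicate number as a block (0.059). The ammonium transporter gene *AMT2* did not pass, at 6.29 and 5.46 against 9.48 and 5.67 cRPKM (-0.29, adjusted p = 0.278), but passed toward *sr45* when centred (0.0387). Among the mitochondrial carriers (3 of 4 in the table) 1 passed, *PUMP4*, at 10.8 and 8.63 against 6.84 and 5.57 cRPKM (0.57, adjusted p = 0.0227), and its call was lost when centred (0.457) and without replicate 1 of the libraries labelled *sap18* or replicate 2 of *sr45* (0.163 and 0.0947). Of 10 listed heat shock genes only *Fes1B* was in the table, at 15.7 and 15.5 cRPKM against 8.02 and 7.35 (0.94, SE 0.17, adjusted p = 0.00281), and it passed when centred (0.0345).

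The 3 organelle-encoded genes of the table could not be compared with any precision. *PSBL* of the chloroplast was at 13.8 and 16.8 cRPKM in the libraries labelled *sap18*, 20.8 and 108 in those of *sr45* and 125 and 28.1 in Col-0, and *COX2* and *NAD4L* of the mitochondrion had the same pattern. One *sr45* library and one Col-0 library were thus several times above their partners in all 3. They were the 3 loci of the table that were more than 1 apart on the log2 scale and did not pass limma (adjusted p = 0.123, 0.0843 and 0.118). Without *sr45* replicate 1 all 3 passed as higher in *sr45*, and when centred 1 did.

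Where Col-0 lay differed between the directions. Of the 48 loci that met the fold criterion toward the libraries labelled *sap18*, the mean of Col-0 lay between the lines in 33, above both in 10 and below both in 5, and it was nearer to the libraries labelled *sap18* in 27 and nearer to *sr45* in 21. Of the 24 toward *sr45*, it lay between the lines in 12, below both in 11 and above both in 1, and was nearer to the libraries labelled *sap18* in 21. In the whole table the mean of Col-0 lay between the lines at 54 of 454 loci, above both at 264 and below both at 136. It was nearer to the libraries labelled *sap18* at 332. A wide gap between the lines, which the fold criterion asks for, in itself makes a place between them more likely. *POX1* and *RFS6*, and the iron deficiency genes *BHLH100* and AT1G47400, were examples in which *sr45* stood apart, and *PCC1*, *EXL1* and *ERF012* of those in which the libraries labelled *sap18* did. These positions use the Col-0 libraries by which the loci had been selected, and are given as a description.

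The loci that met the fold criterion had fewer annotated exons than those of the table. A single exon was annotated in 14 of the 48 loci toward the libraries labelled *sap18* (29.2%) and in 9 of the 24 toward *sr45* (37.5%), against 81 of the 450 loci with a position (18%). The medians were 3, 2 and 5 exons. *EXL1*, *BBX30*, AT1G47395 and AT1G47400 are among the single-exon genes. By limma the shares were 15% toward the libraries labelled *sap18* and 31.2% toward *sr45*, with medians of 5 and 2 exons. The larger set, toward the libraries labelled *sap18*, thus had the median of the table. Of the loci that met the fold criterion, 4 pairs lay within 20 kb of each other, AT1G47395 with AT1G47400, *MLP328* with *MLP329*, *ORG2* with *ORG3* and AT2G45630 with *SAP18*, and all but the last went in the same direction.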

How the data were processed

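RNA of whole seedlings was sequenced in 6 libraries, of which 4 enter the contrast. The authors quantified the reads with vast-tools 2.5 on an extended annotation of Ensembl Plants 31 (genome build TAIR10) and deposited cRPKM, a form of RPKM corrected for mappable positions, after quantile normalization. The deposited values hold no reads and cannot be turned back into them, so the depth is unknown, and the spread between libraries is the sole measure of precision. The median standard error of a log2 difference was 0.175. All columns were mapped to samples by the descriptions (0 were left without a sample).

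limma 3.58.1 in R 4.3.3 was fitted to log2(cRPKM + 1) with moderated variance, with the Col-0 libraries lending only their spread. The fold criterion follows the methods of the study, without its minimum of reads. The limma step was tested on simulated data. Python 3.11.15, numpy 2.4.6, pandas 2.3.3 and matplotlib 3.10.9 served for all other steps. Symbols, positions and sequences are from RefSeq TAIR10.1, which matched 450 of the 454 loci, and 197 loci had no symbol.

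Genes named are *SAP18*, *SR45*, the 15 largest differences in each direction among loci meeting the fold criterion, and up to 4 members of each of 27 gene lists with the largest differences; names outside this rule were chosen after their values had been seen. The loci and lists were chosen with earlier results of these data known, so that how many members of a list are in the table is not a result. Replicates were left out in turn, and the fold threshold, level minimum, pseudocount, filter, centring, variance model, samples fitted and a replicate block were varied.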

Additional observations from a re-analysis of the deposited data

How the results depend on the processing

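No named gene that passed limma changed sign under any alternative. Among those that had not passed, 8 of the 104 named genes went from above to below 0 when centred, none of them passing (*AGT3*, *ARR6*, *ARR7*, AT3G54500, *BGLU8*, *PER30*, *PUMP5* and *SAMC1*), and *PUMP5*, *ARR16* or *AMT2* changed sign without 1 library or, for *PUMP5*, with a pseudocount of 0.1. By the fold criterion, a threshold of 1.5 gave 159 loci (115 toward the libraries labelled *sap18* and 44 toward *sr45*) and one of 3 gave 34 (21 and 13). Ratios of line means gave 37 toward *sr45*, and centring on the table's median difference gave 27 and 44. Leaving out each library in turn gave 87 to 106 loci, as fewer ratios are then required. By limma, centring gave 78 loci toward the libraries labelled *sap18* and 116 toward *sr45*. Leaving out each library in turn gave between 146 and 265 loci, 106 to 197 toward the libraries labelled *sap18* and 40 to 68 toward *sr45*. Pseudocounts of 0.1 and 5 gave 257 and 276 loci, and without adjustment 292 had p under 0.05. Of the 104 named genes, centring ended 22 calls and added 6, and leaving out replicate 1 or 2 of the libraries labelled *sap18* ended 19 and 16. The cause was not tested.

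The replicate numbers do not pair the libraries: over the 454 loci, deviations of same-numbered libraries correlated at -0.03 between Col-0 and the libraries labelled *sap18*, -0.11 between Col-0 and *sr45* and 0.08 between the lines. With the replicate number as a block, limma passed 261 loci, 198 and 63 by direction.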
